A study of Caenorhabditis elegans with 6 samples.

Results

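The mitochondrial ribosomal protein genes of *Caenorhabditis elegans* were taken as all genes of the deposited table whose name starts with *mrpl-* (large subunit) or *mrps-* (small subunit). There were 66 of them among 12798 listed genes, 39 for the large and 27 for the small subunit, with 253 of the 53267 listed exons. The gene with identifier WBGene00018475 is listed as *mrpl-14* and carries another name in the current name table, and 4 genes that now carry an *mrpl* or *mrps* name are listed under sequence names and were not counted as members. The mitochondrial ribosome translates the few messages of mitochondrial DNA (mtDNA), which in animals code for subunits of the respiratory chain and of ATP synthase. Its own proteins are encoded in the nucleus, made in the cytosol and imported, so a respiratory chain needs the products of both genomes. In worms, RNAi against *mrps-5* and other genes of this set is known to induce the mitochondrial unfolded protein response and to lengthen life.

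The study asked how loss of SDHB-1, the iron-sulphur subunit of succinate dehydrogenase, and a missense change of it found in familial paraganglioma alter worm metabolism. PolyA-tailed RNA of whole worms was sequenced in 6 libraries, 1 per condition, each from a pool of worms. The mutants were *sdhb-1(gk165)* at L2, which carries a deletion in *sdhb-1* that also reaches into the neighbouring gene *cup-15* and arrests at that stage, and R244H at L4, which carries the point mutant *sdhb-1* transgene in the *gk165* background and gives sterile adults. Their controls were wild type (WT, strain N2) at L2, L3 and L4 and WTR at L4, in which a wild-type *sdhb-1* transgene complements *gk165*. Both transgenes are single-copy insertions on the X chromosome under the promoter of *sdhb-1*, made in an *unc-119(ed3)* background, and the label of R244H gives its genotype as *gk165* over the balancer *mIn1*. Whether the sequenced R244H worms still carried a wild-type *sdhb-1* on that balancer is not given in the sources used here, so every R244H value may be that of worms with or without such a copy. The *gk165* strain was also kept as a heterozygote over *mIn1*. The methods of the study do not give how its homozygotes were picked for sequencing. The *gk165* worms were compared with WT (L2), the stage at which they arrest, and with WT (L3), and the R244H worms with WT (L4) and WTR (L4). The study reports that R244H worms develop late and reach adulthood after WT and WTR worms.

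With 1 library per condition no difference has a replicate check, so no p-value is given, and every interval is a 95% interval that covers counting error only. Genotype, pool and preparation cannot be told apart. Reads recovered on listed exons numbered 188742 to 867446 per library, fewest in WT (L2), and 7.87% to 50.3% of listed exons had no read, most in *gk165*. Levels are given in CPM, reads of a gene scaled to a common library size, and between genes in RPKM, which also divides by the listed length. Ratios are log2 ratios of CPM + 1, and a gene is called higher or lower at 2-fold or more. The targeted gene *sdhb-1* had 18.1 CPM in *gk165*, on 5 reads that all lay in the 3' most of its 6 listed exons, against 138 CPM in WT (L2) and 255 CPM in WT (L3). In R244H it had 174 CPM, against 206 CPM in WT (L4) and 84.3 CPM in WTR.

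All 66 members passed the minimum mean of 10 CPM, as did 8368 genes in all, and every member had at least 1 read in every library. The members were short, with a median listed exon length of 739 bp (309 to 1969 bp) over 4 exons, against 1317.5 bp over 5 exons for all genes that passed. None was on the X chromosome, which held 12% of the genes that passed, and 21 (31.8%) were on chromosome III, which held 17.9%. For 25 members (37.9%), a coding gene that began upstream on the same strand reached to within 500 bp of the member or past its start. This held for 22.9% of all genes with a neighbour measured. A gene that reached past the start, as at *mrpl-1*, counted as a gap of 0. A short gap between genes is typical of worm operons, in which genes share a promoter, and whether the members lie in operons was not tested. The closest pair of members was *mrps-2* and *mrpl-4*, 105 bp apart on the same strand of chromosome V. On WBcel235, *mrps-33* (WBGene00009013) spans IV:8739504-8740026 on the minus strand and *mrps-5* (WBGene00008452) V:12563487-12565785 on the plus strand. On chromosome III, *mrpl-45* (WBGene00022493) spans III:1196560-1202008 and *mrpl-36* (WBGene00010783) III:9847626-9848116, both on the minus strand, and *mrpl-12* (WBGene00012361) III:10707761-10708518 on the plus strand. Exons of 50 members overlapped no other annotated exon. Those of 2 members overlapped a gene on the same strand (*mrps-16* and *mrps-18A*) and those of 14 a gene on the opposite strand, and since it is not given in the sources used here whether counting used strand, the reads of these 16 may include reads of the neighbour.

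**Figure D1:**
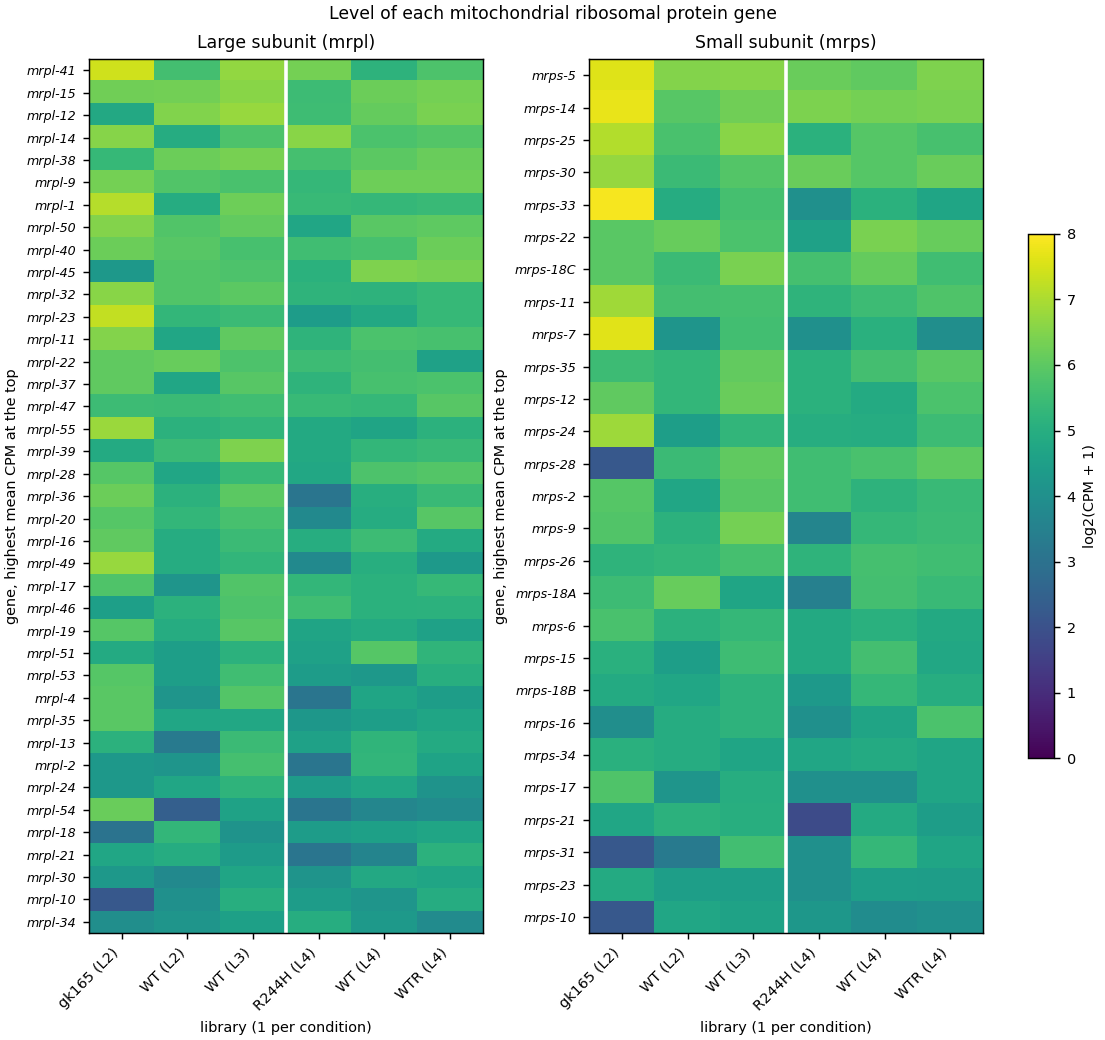
Level of each of the 66 members, as log2(CPM + 1), by library, with the large subunit on the left and the small subunit on the right and genes ordered by mean CPM. The *gk165* column holds the brightest cells, such as *mrps-33* at 239 CPM, and dark ones, such as *mrps-28* at 3.62 CPM, and the R244H column is darker than WT (L4) for 47 of the 66 genes.

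Per length, the members were expressed above the typical gene in every library. Their median was 60.9 RPKM in *gk165*, against 44.3 in WT (L2) and 59.3 in WT (L3), and 32.3 RPKM in R244H, against 46.2 in WT (L4) and 46.8 in WTR. The median of all genes that passed was between 18.4 and 29.6 RPKM. Reads per member were few, with a median of 16 in *gk165* and 11 in R244H, against 7.5, 27 and 29.8 in WT at L2, L3 and L4 and 21.5 in WTR. In *gk165* 5 members had 3 reads or fewer, in R244H 6 and in WT (L2) 4, and none did in the other 3 libraries. The 10 members with the highest mean RPKM were *mrps-33*, *mrpl-36*, *mrps-14*, *mrpl-41*, *mrpl-55*, *mrps-25*, *mrpl-12*, *mrpl-23*, *mrps-12* and *mrpl-40*, with means from 138 down to 88.0 RPKM. The proteins of a ribosome are present in equal copies apart from the stalk. Over the 66 members RPKM spanned 25.5 to 203 in WT (L3) and 16 to 109 in WT (L4), the most deeply covered of the wild-type libraries. The fewest reads of a member were 9 in each of these libraries. The part of counting error, listed length and overlapping genes in this span was not tested. The order of the members by RPKM had a Spearman's rho of 0.59 to 0.72 between any 2 control libraries, of 0.39 to 0.63 between *gk165* and any other library and of 0.39 to 0.53 between R244H and any other, each over 66 genes. These coefficients describe single libraries of unequal depth and carry no test.

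Among the control libraries the set moved little with the transgene and more with stage. WTR had a summed level of 2807 CPM (2665 to 2954), against 2674 CPM in WT (L4) (2561 to 2789), a log2 ratio of 0.07 (-0.03 to 0.17). The median member ratio of WTR to WT (L4) was 0.10, where that of all genes was -0.01. Higher were 2 members, or 3.03% (5.26% of all genes), and lower 2 (7.4% of all genes). *mrpl-21* had 34.5 CPM in WTR, against 11.3 in WT (L4), and *mrps-16* had 51.7, against 24.4. *mrpl-22* had 23 CPM in WTR, against 47.5 in WT (L4), and *mrps-7* had 14.4, against 32.5. For 3 of these 4 the counting interval excluded no change. The 4 were named after their values were seen, and they give the size of difference that a pair of libraries with working SDHB-1 can hold.

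Across wild-type stages the summed level was 2419 CPM at L2 (2223 to 2627), 3408 CPM at L3 (3255 to 3564) and 2674 CPM at L4. The set was thus highest at L3. As a share of recovered reads, without the authors' scaling, it was 0.298% at L2, 0.327% at L3 and 0.246% at L4, so L2 and L3 lay closer together. For WT (L3) over WT (L2) the median was 0.48 (all genes 0.42), with 16 members higher, or 24.2% (26.1% of all genes), and 2 lower (4.27%), so the members stood close to the typical gene. For WT (L4) over WT (L3) the median was -0.33 where that of all genes was 0.08, with 0 members higher (20.2%) and 6 lower (15.7%), and 55 of the 66 lay below the median of all genes. The 16 germline markers had a median log2 ratio of 2.86 in the same comparison, and the part of the germline in the level of the members was not tested. In whole worms, fewer cells of a type and less RNA per cell cannot be told apart.

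**Figure D2:**
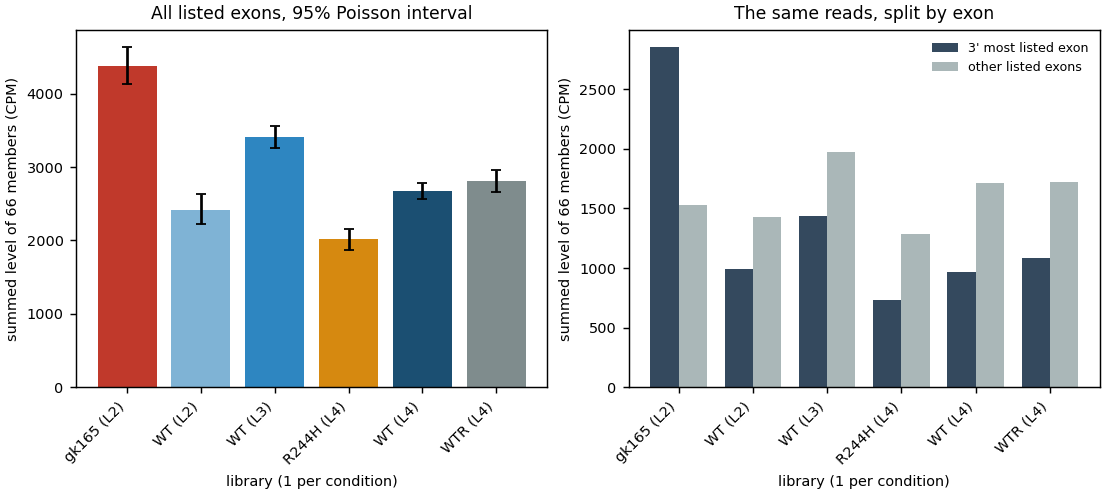
Summed level of the 66 members in CPM by library, with 95% Poisson intervals over all listed exons (left) and split into the 3' most listed exon and the other exons (right). *gk165* stands at 4380 CPM and R244H at 2014 CPM, the extremes of the 6 libraries, and the excess of *gk165* is in the 3' most exon.

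In R244H the messages of the mitochondrial ribosome had the lowest sum of the 6 libraries. The summed level was 2014 CPM (1875 to 2159), against 2674 CPM in WT (L4) and 2807 CPM in WTR, log2 ratios of -0.41 (-0.53 to -0.29) and -0.48 (-0.61 to -0.35). The intervals exclude both no change and the ratio of WTR to WT (L4). The median member ratio was -0.44 over WT (L4) and -0.53 over WTR. The median of all genes was itself below 0, at -0.27 and -0.23, which leaves differences of -0.17 and -0.30 between the members and the typical gene. Against WT (L4), 47 members had ratios below 0 (59.3% of all genes), and 16, or 24.2%, were lower at 2-fold (28.7% of all genes) and 1 higher (14.4%). Against WTR, 49 had ratios below 0 (56.3% of all genes), and 13, or 19.7%, were lower (29.5%) and 1 higher (18.5%). The share of members called lower was thus under that of all genes in each comparison, and the members as a set stood moderately lower, with few large differences in either direction. Counting only members whose interval excluded no change, 10 and 11 were lower (23.2% and 23.9% of all genes) and 1 and 0 higher (11.1% and 12.6%). Their quartiles lay at -0.95 and 0.03 against WT (L4), where those of all genes lay at -1.16 and 0.53.

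The 2 subunits did not separate. The large subunit had a summed log2 ratio of -0.37 (-0.53 to -0.22) to WT (L4) and -0.47 (-0.64 to -0.31) to WTR, and the small subunit -0.46 (-0.65 to -0.28) and -0.49 (-0.69 to -0.29). These intervals overlap widely, which does not show that the subunits are equal. Subunits were taken from the gene names, although the human counterparts of *mrps-18A* and *mrps-30* sit in the large subunit.

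Lower than both controls by 2-fold were 10 members (24.4% of all genes), *mrpl-2*, *mrpl-4*, *mrpl-20*, *mrpl-36*, *mrpl-45*, *mrpl-50*, *mrps-9*, *mrps-18A*, *mrps-21* and *mrps-22*. For 7 of them both intervals excluded no change (18.7% of all genes), and higher than both controls were 0 (11%), also with the intervals (7.96%). In the large subunit, *mrpl-2*, whose bacterial counterpart shapes the peptidyl transferase centre, had 18.1 CPM in *gk165*, against 17.2 CPM in WT (L2) and 48.5 CPM in WT (L3), and 7.66 CPM in R244H, against 37.5 CPM in WT (L4) and 23.9 CPM in WTR. Log2 ratios in R244H were -2.15 (-4.65 to -0.61) against WT (L4) and -1.53 (-4.05 to 0.30) against WTR. With 3 reads in R244H its ratio is loosely bounded, and the interval to WTR includes no change. *mrpl-36*, the second member by mean RPKM and a small zinc-binding protein in bacteria, had 72.4 CPM in *gk165*, against 34.4 CPM in WT (L2) and 62.9 CPM in WT (L3), and 7.66 CPM in R244H, against 31.3 CPM in WT (L4) and 42.1 CPM in WTR. R244H thus stood at a log2 ratio of -1.90 (-4.40 to -0.32) against WT (L4) and -2.32 (-4.84 to -0.72) against WTR. R244H was the lowest of the 6 libraries for this gene, on 3 reads.

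*mrpl-45*, whose human counterpart ties the ribosome to the inner membrane near the exit of the new protein, had 18.1 CPM in *gk165*, against 55.9 CPM in WT (L2) and 53.9 CPM in WT (L3), and 33.2 CPM in R244H, against 86.3 CPM in WT (L4) and 80.5 CPM in WTR. For R244H over WT (L4) the log2 ratio was -1.35 (-2.36 to -0.51), and over WTR it was -1.25 (-2.30 to -0.35). Its *gk165* level lay below both controls too, and it was the only member at least 2-fold lower than both controls in both mutants. *mrpl-50*, a protein particular to mitochondrial ribosomes, had 90.5 CPM in *gk165*, against 55.9 CPM in WT (L2) and 66.4 CPM in WT (L3), and 25.5 CPM in R244H, against 61.3 CPM in WT (L4) and 63.2 CPM in WTR. This gave R244H a log2 ratio of -1.23 (-2.41 to -0.26) over WT (L4) and -1.27 (-2.49 to -0.25) over WTR. The R244H value lay under that of every other library. *mrps-18A*, one of several members of its family in worms, had 43.4 CPM in *gk165*, against 68.9 CPM in WT (L2) and 25.1 CPM in WT (L3), and 10.2 CPM in R244H, against 47.5 CPM in WT (L4) and 42.1 CPM in WTR. Relative to WT (L4), R244H had a log2 ratio of -2.11 (-4.16 to -0.74), and relative to WTR of -1.94 (-4.04 to -0.49). Its exons overlap *iglr-2* on the same strand, and its wild-type levels also differed between stages.

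In the small subunit, *mrps-9*, whose bacterial counterpart reaches to the tRNA in the P site, had 56.1 CPM in *gk165*, against 34.4 CPM in WT (L2) and 79.0 CPM in WT (L3), and 11.5 CPM in R244H, against 39.4 CPM in WT (L4) and 43.1 CPM in WTR. Log2 ratios in R244H were -1.69 (-3.93 to -0.47) against WT (L4) and -1.82 (-4.04 to -0.49) against WTR. The level in WT (L3) was the highest and that in R244H the lowest of the 6. *mrps-21* had 25.3 CPM in *gk165*, against 34.4 CPM in WT (L2) and 31.4 CPM in WT (L3), and 2.55 CPM in R244H, against 28.8 CPM in WT (L4) and 21.1 CPM in WTR. R244H thus stood at a log2 ratio of -3.07 (-8.86 to -0.87) against WT (L4) and -2.63 (-8.47 to -0.26) against WTR. The R244H value is 1 read, and these were the lowest ratios of any member in the R244H comparisons. *mrps-22*, found only in mitochondrial ribosomes, had 61.5 CPM in *gk165*, against 68.9 CPM in WT (L2) and 52.1 CPM in WT (L3), and 23 CPM in R244H, against 82.5 CPM in WT (L4) and 69.0 CPM in WTR. For R244H over WT (L4) the log2 ratio was -1.80 (-3.03 to -0.83), and over WTR it was -1.54 (-2.82 to -0.50). It rested on 9 reads in R244H, against 66 in WT (L4) and 36 in WTR, and the other 5 libraries lay between 52.1 and 82.5 CPM.

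At the other end, the 5 members with the largest ratios in R244H were *mrpl-14*, *mrpl-34*, *mrpl-41*, *mrpl-46* and *mrps-10*, and none reached 2-fold against both controls. *mrpl-41*, particular to mitochondrial ribosomes, had 170.1 CPM in *gk165*, against 47.3 CPM in WT (L2) and 102 CPM in WT (L3), and 79.2 CPM in R244H, against 35.0 CPM in WT (L4) and 53.6 CPM in WTR. This gave R244H a log2 ratio of 1.15 (0.39 to 1.97) over WT (L4) and 0.55 (-0.22 to 1.35) over WTR. It is the member called higher against WT (L4), and the interval to WTR includes no change. The gene listed as *mrpl-14* had 92.3 CPM in *gk165*, against 30.1 CPM in WT (L2) and 53.0 CPM in WT (L3), and 94.5 CPM in R244H, against 51.9 CPM in WT (L4) and 56.5 CPM in WTR. Relative to WT (L4), R244H had a log2 ratio of 0.85 (0.17 to 1.52), and relative to WTR of 0.73 (-0.02 to 1.46). Its exons overlap *brf-1* on the opposite strand. *mrpl-34* had 14.5 CPM in *gk165*, against 17.2 CPM in WT (L2) and 22.4 CPM in WT (L3), and 30.7 CPM in R244H, against 18.8 CPM in WT (L4) and 13.4 CPM in WTR, and it was the member called higher against WTR. Log2 ratios in R244H were 0.68 (-0.52 to 1.90) against WT (L4) and 1.135 (-0.27 to 2.78) against WTR. Both intervals include no change, and its exons overlap *aha-1* on the opposite strand. *mrpl-46* had 21.7 CPM in *gk165*, against 34.4 CPM in WT (L2) and 53.9 CPM in WT (L3), and 46.0 CPM in R244H, against 33.8 CPM in WT (L4) and 34.5 CPM in WTR. Its R244H ratios were 0.43 and 0.40, with intervals that include no change. *mrps-10*, of the head of the small subunit in bacteria, had 3.62 CPM in *gk165*, against 25.8 CPM in WT (L2) and 23.3 CPM in WT (L3), and 17.9 CPM in R244H, against 13.8 CPM in WT (L4) and 15.3 CPM in WTR. The R244H ratios of *mrps-10* were 0.36 and 0.21, and their intervals include no change as well.

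**Figure D3:**
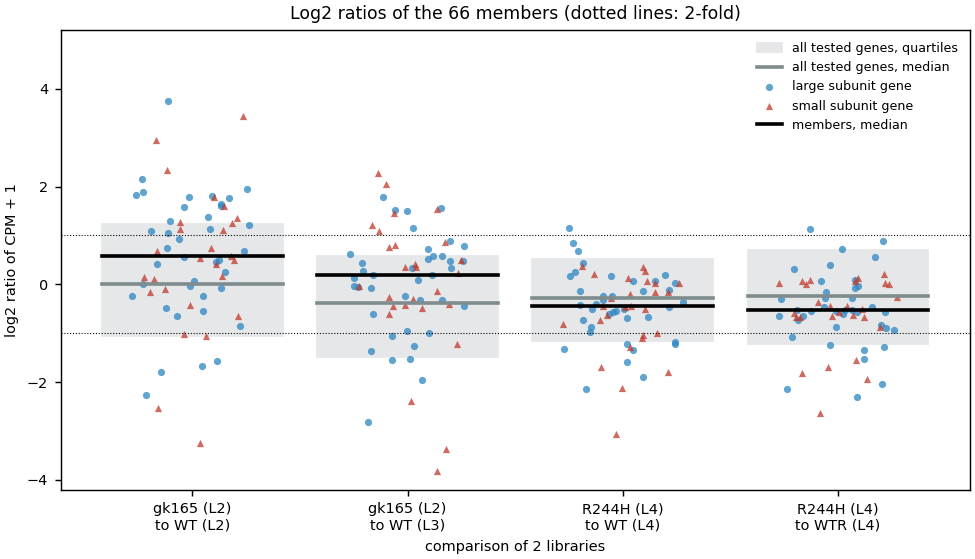
Log2 ratios of CPM + 1 of the 66 members in the 4 comparisons of a mutant with a control, with the member median (black), the median of all 8368 genes (grey line) and their quartiles (grey box). In R244H most members lie below 0, at medians of -0.44 and -0.53, while in *gk165* they spread widely, at medians of 0.57 and 0.20.

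The lower level in R244H was seen in both parts of the gene. In the 3' most exon alone the median member ratio was -0.44 to WT (L4) and -0.65 to WTR, where those of all genes were -0.37 and -0.35. In the other exons it was -0.45 and -0.47, where those of all genes were -0.25 and -0.19. In the 3' most exon against WT (L4) the members thus differed from the typical gene by -0.07. Of the 10 members lower than both controls, 8 were so in the 3' most exon alone and 8 in the other exons alone, where 14 members were called in each (26.6% and 23.7% of all genes). Germline markers differed far more: all 16 germline markers were lower in R244H than in both controls, with a median log2 ratio of -3.02 and -3.37. They summed to 392.1 CPM in R244H, against 3556 CPM in WT (L4) and 4259 CPM in WTR, and to 399 CPM in WT (L3). The 7 sperm markers tested had medians of -6.14 and -6.57, and the 8 neuronal markers 0.83 and 1.32. The part of this shift in tissues, or of late development, in the level of the members was not tested. Cytosolic ribosomal protein genes, 77 of which passed the minimum, had medians of -0.23 and -0.28, near those of all genes. In each comparison 0 were higher (14.4% and 18.5% of all genes) and 3 lower (28.7% and 29.5%).

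In *gk165* the members summed to more than in any other library. The summed level was 4380 CPM (4136 to 4634), against 2419 CPM in WT (L2) and 3408 CPM in WT (L3), log2 ratios of 0.86 (0.71 to 1.0) and 0.36 (0.26 to 0.47). The median member ratio was 0.57 to WT (L2), where that of all genes was 0.00, and 0.20 to WT (L3), where that of all genes was -0.38. With recovered totals as library sizes the first median was 0.27, and with the mean of exon RPKM the second was -0.12. Against WT (L2), 27 members, or 40.9%, were higher (28.8% of all genes) and 8, or 12.1%, lower (25.9%). Against WT (L3), 11, or 16.7%, were higher (17.9%) and 12, or 18.2%, lower (35%). Fewer members than genes at large were thus lower in both comparisons, and more were higher in the first alone. With intervals that exclude no change, 19 were higher (15.8%) and 4 lower (14.2%) against WT (L2), and 11 were higher (13.2%) and 9 lower (23.9%) against WT (L3). The ratios of the members had an SD of 1.33 and 1.20 in *gk165*, of 0.76 and 0.75 in R244H and of 0.50 for WTR over WT (L4). Their quartiles in *gk165* lay at -0.14 and 1.38 against WT (L2), where those of all genes lay at -1.06 and 1.24, and at -0.45 and 0.70 against WT (L3), where those of all genes lay at -1.48 and 0.59. The members were thus less spread than genes at large. For 15 members the interval to WT (L2), and for 22 that to WT (L3), excluded the ratio of the summed set.

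The reads of *gk165* lay towards the 3' end of genes. Over 7272 tested genes with 3 or more listed exons, the 3' most exon held 58.3% of the reads in *gk165*, against 27.9% to 38.3% in the other 5 libraries, and over the 58 members of this kind it held 60.7%, against 33.3% to 39.9%. The higher sum of *gk165* lay in that exon. The 3' most exons of the 66 members summed to 2854 CPM in *gk165*, against 994 CPM in WT (L2) and 1437 CPM in WT (L3). Their other exons summed to 1526 CPM in *gk165*, against 1424 CPM in WT (L2) and 1970 CPM in WT (L3). The median member ratio was 1.66 (all genes 0.46) and 0.60 (0.10) in the 3' most exon, and -0.20 (all genes -0.23) and -0.56 (-0.98) in the rest, so without the 3' most exon the direction of the median turned in both comparisons. Short genes at large stood higher in *gk165*: the 2692 genes under 1000 bp had medians of 0.62 and 0.18, and the 5676 longer genes -0.14 and -0.68. The 45 members under 1000 bp had 0.68 and 0.35, and the 21 longer members 0.51 and -0.41.

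**Figure D4:**
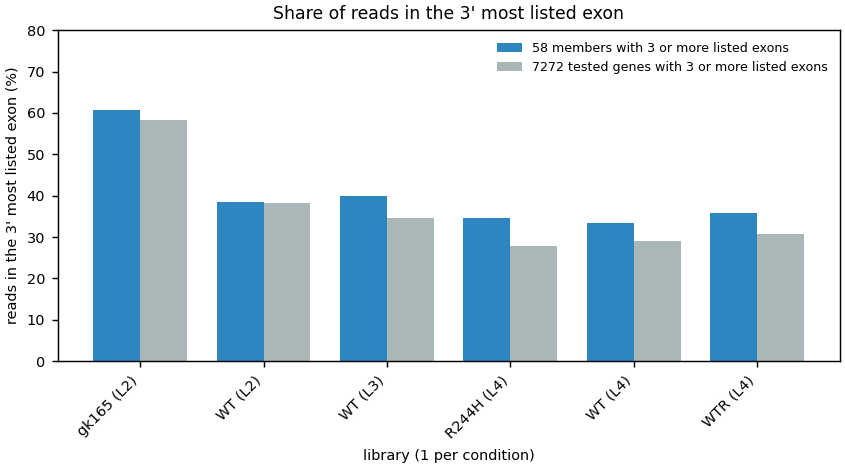
Share of reads in the 3' most listed exon by library, for the 58 members and the 7272 tested genes with 3 or more listed exons. *gk165* stands apart at 60.7% and 58.3%, and the other 5 libraries lie between 27.9% and 39.9%.

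Higher in *gk165* than in both controls by 2-fold were 11 members (15.1% of all genes), *mrpl-23*, *mrpl-35*, *mrpl-49*, *mrpl-54*, *mrpl-55*, *mrps-5*, *mrps-7*, *mrps-11*, *mrps-14*, *mrps-24* and *mrps-33*, and for all but *mrpl-35* both intervals excluded no change (10.4% of all genes). All 11 were also higher than both controls in the 3' most exon alone, where 24 members were called (26.3% of all genes). Outside it, of the 10 with another exon, *mrps-14* alone was, where 2 members were called (8.35% of all genes). In the small subunit, *mrps-33*, a protein found only in mitochondrial ribosomes and the first member by mean RPKM, had 239 CPM in *gk165*, against 30.1 CPM in WT (L2) and 48.5 CPM in WT (L3), and 15.3 CPM in R244H, against 33.8 CPM in WT (L4) and 24.9 CPM in WTR. Its log2 ratios in *gk165* were 2.95 (1.86 to 4.36) against WT (L2) and 2.28 (1.63 to 3.0) against WT (L3). Of its 66 reads in *gk165*, 60 were in the 3' most exon, against 4.5 of 7 in WT (L2) and 18 of 27 in WT (L3). In CPM the 3' most exon had 217 in *gk165*, against 19.4 and 32.3, and the other exon had 21.7 in *gk165*, against 10.8 and 16.2.

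*mrps-7*, whose bacterial counterpart starts the assembly of the head of the small subunit, had 197 CPM in *gk165*, against 17.2 CPM in WT (L2) and 46.7 CPM in WT (L3), and 15.3 CPM in R244H, against 32.5 CPM in WT (L4) and 14.4 CPM in WTR. *gk165* thus stood at a log2 ratio of 3.44 (2.07 to 5.43) against WT (L2) and 2.06 (1.37 to 2.80) against WT (L3). Its 3' most exon had 163 CPM in *gk165*, against no read in WT (L2) and 18.9 CPM in WT (L3), and its other exons had 34.4 CPM, against 17.2 and 27.8 CPM. *mrps-14*, also of the head, had 209.9 CPM in *gk165*, against 60.3 CPM in WT (L2) and 75.4 CPM in WT (L3), and 84.3 CPM in R244H, against 80.03 CPM in WT (L4) and 82.4 CPM in WTR. For *gk165* over WT (L2) the log2 ratio was 1.78 (0.94 to 2.76), and over WT (L3) it was 1.46 (0.88 to 2.09). Its other exons had 50.7 CPM in *gk165*, against 10.8 CPM in WT (L2) and 22.4 CPM in WT (L3), and the 3 libraries of L4 worms were nearly equal. *mrps-24*, the mitochondrial counterpart of S3 at the mRNA entry channel, had 112 CPM in *gk165*, against 21.5 CPM in WT (L2) and 37.7 CPM in WT (L3), and 30.7 CPM in R244H, against 30.01 CPM in WT (L4) and 44.1 CPM in WTR. This gave *gk165* a log2 ratio of 2.33 (1.01 to 4.10) over WT (L2) and 1.55 (0.73 to 2.45) over WT (L3). The 3' most exon held 23 of its 31 reads in *gk165*.

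*mrps-5*, the best known member in worms for its effect on lifespan, had 195 CPM in *gk165*, against 90.4 CPM in WT (L2) and 91.6 CPM in WT (L3), and 71.5 CPM in R244H, against 65.0 CPM in WT (L4) and 86.2 CPM in WTR. Relative to WT (L2), *gk165* had a log2 ratio of 1.10 (0.36 to 1.91), and relative to WT (L3) of 1.09 (0.51 to 1.67). R244H lay between its controls. The 3' most exon held 32.5 of the 54 reads in *gk165*, against 8 of 21 in WT (L2) and 20 of 51 in WT (L3). *mrps-11*, of the platform of the small subunit in bacteria, had 114 CPM in *gk165*, against 47.3 CPM in WT (L2) and 48.5 CPM in WT (L3), and 35.8 CPM in R244H, against 43.8 CPM in WT (L4) and 54.6 CPM in WTR. Its log2 ratios in *gk165* were 1.25 (0.27 to 2.43) against WT (L2) and 1.22 (0.47 to 2.05) against WT (L3). Outside the 3' most exon it had 7.24 CPM in *gk165*, on 2 reads, against 17.2 CPM in WT (L2) and 18.9 CPM in WT (L3), and its exons overlap *inx-11* on the opposite strand.

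In the large subunit, *mrpl-23*, whose bacterial counterpart lines the exit of the peptide tunnel, had 152 CPM in *gk165*, against 38.7 CPM in WT (L2) and 43.1 CPM in WT (L3), and 20.4 CPM in R244H, against 27.5 CPM in WT (L4) and 40.2 CPM in WTR. *gk165* thus stood at a log2 ratio of 1.95 (0.91 to 3.20) against WT (L2) and 1.79 (1.06 to 2.61) against WT (L3). Of its 42 reads in *gk165*, 39.5 were in the 3' most exon. *mrpl-49*, particular to mitochondrial ribosomes, had 109 CPM in *gk165*, against 30.1 CPM in WT (L2) and 37.7 CPM in WT (L3), and 12.8 CPM in R244H, against 31.3 CPM in WT (L4) and 19.2 CPM in WTR. For *gk165* over WT (L2) the log2 ratio was 1.82 (0.63 to 3.28), and over WT (L3) it was 1.5 (0.67 to 2.40). The R244H value was again the lowest of the 6 libraries. *mrpl-55* had 110.4 CPM in *gk165*, against 34.4 CPM in WT (L2) and 37.7 CPM in WT (L3), and 28.1 CPM in R244H, against 24.4 CPM in WT (L4) and 34.5 CPM in WTR. This gave *gk165* a log2 ratio of 1.65 (0.50 to 2.99) over WT (L2) and 1.52 (0.67 to 2.40) over WT (L3). Outside the 3' most exon it had 50.7 CPM in *gk165*, against 32.3 CPM in WT (L2) and 27.8 CPM in WT (L3). *mrpl-54*, the only member with a single listed exon, had 70.6 CPM in *gk165*, against 4.304 CPM in WT (L2) and 23.3 CPM in WT (L3), and 7.66 CPM in R244H, against 11.9 CPM in WT (L4) and 13.4 CPM in WTR. Relative to WT (L2), *gk165* had a log2 ratio of 3.75 (1.43 to 9.45), and relative to WT (L3) of 1.56 (0.55 to 2.76). The value of WT (L2) is 1 read, which leaves the upper end of the ratio loosely bounded.

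Lower in *gk165* than in both controls by 2-fold were 8 members (23% of all genes), *mrpl-10*, *mrpl-12*, *mrpl-18*, *mrpl-45*, *mrps-10*, *mrps-16*, *mrps-28* and *mrps-31*, and for *mrpl-12*, *mrpl-45* and *mrps-28* both intervals excluded no change (12.1% of all genes). Of these 8, *mrpl-10*, *mrpl-12*, *mrps-10* and *mrps-28* were also lower than both controls in the 3' most exon alone, where 5 members were called (16.5% of all genes). All 8 were lower in the other exons alone, where 20 members were called (33.1% of all genes). In bacteria the counterparts of *mrpl-12* and *mrpl-10* form the stalk that recruits translation factors to the large subunit. *mrpl-12* had 27.1 CPM in *gk165*, against 88.2 CPM in WT (L2) and 109 CPM in WT (L3), and 44.7 CPM in R244H, against 68.2 CPM in WT (L4) and 83.3 CPM in WTR. Its log2 ratios in *gk165* were -1.66 (-2.96 to -0.33) against WT (L2) and -1.96 (-3.17 to -0.83) against WT (L3). It was lower in both its parts, with 14.5 CPM in the 3' most exon in *gk165*, against 53.8 CPM in WT (L2) and 57.5 CPM in WT (L3), and 12.7 CPM in the other exons, against 34.4 and 51.2 CPM. The exons of *mrpl-12* overlap *W09D10.5* on the opposite strand. For *mrpl-12* R244H was the lowest of the L4 libraries too, with log2 ratios of -0.60 (-1.41 to 0.24) to WT (L4) and -0.88 (-1.75 to -0.05) to WTR.

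*mrpl-10* had 3.62 CPM in *gk165*, against 15.1 CPM in WT (L2) and 31.4 CPM in WT (L3), and 20.4 CPM in R244H, against 16.9 CPM in WT (L4) and 29.7 CPM in WTR. *gk165* thus stood at a log2 ratio of -1.80 (-7.87 to 1.09) against WT (L2) and -2.81 (-8.54 to -0.50) against WT (L3). Its value in *gk165* is 1 read, and the interval to WT (L2) includes no change. *mrpl-11*, the base of the same stalk, did not share this direction and had 90.5 CPM in *gk165*, against 25.8 CPM in WT (L2) and 64.7 CPM in WT (L3), and 35.8 CPM in R244H, against 52.5 CPM in WT (L4) and 49.8 CPM in WTR. For *gk165* over WT (L2) the log2 ratio was 1.77 (0.49 to 3.38), and over WT (L3) it was 0.48 (-0.31 to 1.26). The interval to WT (L3) includes no change. *mrps-28* had 3.62 CPM in *gk165*, against 43.0 CPM in WT (L2) and 64.7 CPM in WT (L3), and 46.0 CPM in R244H, against 51.3 CPM in WT (L4) and 63.2 CPM in WTR. This gave *gk165* a log2 ratio of -3.25 (-9.01 to -0.76) over WT (L2) and -3.83 (-9.50 to -1.59) over WT (L3). Its ratios, the lowest of any member in that library, rest on 1 read in *gk165*, against 10 in WT (L2) and 36 in WT (L3). For *mrpl-45* the log2 ratios of *gk165* were -1.58 (-3.47 to -0.05) and -1.52 (-3.30 to -0.19), on 5 reads, and for *mrps-10* they were -2.54 (-8.36 to 0.21) and -2.40 (-8.10 to 0.05), on 1 read.

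Of the other members named by level or role, *mrps-12*, part of the decoding centre, had 65.2 CPM in *gk165*, against 38.7 CPM in WT (L2) and 71.8 CPM in WT (L3), and 33.2 CPM in R244H, against 28.8 CPM in WT (L4) and 51.7 CPM in WTR. Relative to WT (L2), *gk165* had a log2 ratio of 0.74 (-0.48 to 2.09), and relative to WT (L3) of -0.14 (-1.03 to 0.69). R244H thus stood at a log2 ratio of 0.20 (-0.90 to 1.25) against WT (L4) and -0.62 (-1.72 to 0.36) against WTR. None of the 4 intervals excluded no change. *mrps-25*, found only in mitochondrial ribosomes, had 134 CPM in *gk165*, against 51.6 CPM in WT (L2) and 95.2 CPM in WT (L3), and 33.2 CPM in R244H, against 58.8 CPM in WT (L4) and 49.8 CPM in WTR. Its log2 ratios in *gk165* were 1.36 (0.40 to 2.45) against WT (L2) and 0.49 (-0.15 to 1.13) against WT (L3). *mrpl-40* had 72.4 CPM in *gk165*, against 60.3 CPM in WT (L2) and 50.3 CPM in WT (L3), and 46.0 CPM in R244H, against 50.02 CPM in WT (L4) and 72.8 CPM in WTR, and its intervals included no change in the 4 comparisons. *mrpl-2* had log2 ratios in *gk165* of 0.07 (-2.14 to 2.41) to WT (L2) and -1.37 (-3.16 to -0.02) to WT (L3). The remaining 36 members ran from 3.62 to 138 CPM in *gk165* and from 7.66 to 71.5 CPM in R244H, against 8.61 to 77.5, 16.2 to 95.2 and 11.3 to 73.8 CPM in WT at L2, L3 and L4 and 16.3 to 78.6 CPM in WTR. Their median log2 ratios were 0.50 and -0.03 in *gk165* and -0.44 and -0.49 in R244H. The gene *mrpl-3* is not analysed here.

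Summed by subunit name, the members of both subunits were above the *gk165* controls. The small subunit had summed log2 ratios of 0.99 (0.77 to 1.22) over WT (L2) and of 0.54 (0.38 to 0.70) over WT (L3), and the large subunit 0.75 (0.56 to 0.95) and 0.23 (0.08 to 0.37). A difference between the subunits was not tested. Small subunit genes took 2011 CPM in *gk165*, against 1011 CPM in WT (L2) and 1384 CPM in WT (L3), and large subunit genes 2369 CPM, against 1407 and 2024 CPM. Within the small subunit *mrps-33* and *mrps-7*, whose reads in *gk165* lay mostly in the 3' most exon, held 239 and 197 CPM in *gk165*, against 48.5 and 46.7 CPM in WT (L3). Tissue markers also differed from the controls in this library. The 8 body wall muscle markers had medians of -0.76 and -1.75, with 0 higher and 3 and 6 lower. The 8 hypodermal markers had -0.81 and -1.22, with 2 and 0 higher and 4 and 5 lower. The 16 germline markers had 0.47 and -0.90, with 6 and 0 higher and 2 and 8 lower. The 7 sperm markers tested had 0.64 and 2.21, with 3 and 4 higher and 0 and 1 lower. The 8 neuronal markers had -0.63 and -0.46, with 1 higher in each and 3 and 2 lower. Higher were 28.8% and 17.9% of all genes, and lower 25.9% and 35%. Genes of 2000 bp or more had medians of -0.58 and -1.16. The 7 intestinal markers had medians of -1.35 and -2.01, with 3 and 0 higher and 4 lower in each, while the log2 ratio of their sum was 1.13 and 0.05. The part of tissues in the level of the members, and that of gene length in the marker values, was not tested.

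The messages that this ribosome translates were higher in R244H, where those of its own proteins were lower. The 12 mtDNA-encoded subunits summed to 22367 CPM in R244H, against 7769 CPM in WT (L4) and 8631 CPM in WTR. Their median log2 ratios were 1.32 and 1.51, with 10 of 12 higher in each comparison (14.4% and 18.5% of all genes). In wild type these subunits also differed with stage, with 12135 CPM at L3 against 7769 CPM at L4. The part of stage, or of the selection of polyA-tailed RNA, in the level of these subunits was not tested. In *gk165* they summed to 17504 CPM, against 9253 CPM in WT (L2) and 12135 CPM in WT (L3), with medians of 0.68 and 0.56. Of the 12, 4 and 1 were higher (28.8% and 17.9% of all genes) and 0 and 1 lower (25.9% and 35%). *ctc-1*, subunit I of cytochrome c oxidase, had 7342 CPM in R244H, against 2112 in WT (L4) and 2577 in WTR, and *ctc-3*, subunit III, had 3924 CPM, against 1547 and 1634. *ctc-2*, subunit II, had 2302 CPM in R244H, against 980.4 in WT (L4) and 950.3 in WTR, and *atp-6* of ATP synthase had 1472 CPM, against 729 and 726. In *gk165* the ratios to WT (L2) and WT (L3) were 0.06 and -0.21 for *ctc-1*, 0.96 and 0.58 for *ctc-3*, 1.19 and 0.67 for *ctc-2* and 0.37 and 0.08 for *atp-6*. The sum in *gk165* leaned on *nduo-1*, a complex I subunit named after its values were seen, with 4807 CPM in *gk165*, against 596 CPM in WT (L2) and 1040 CPM in WT (L3).

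**Figure D5:**
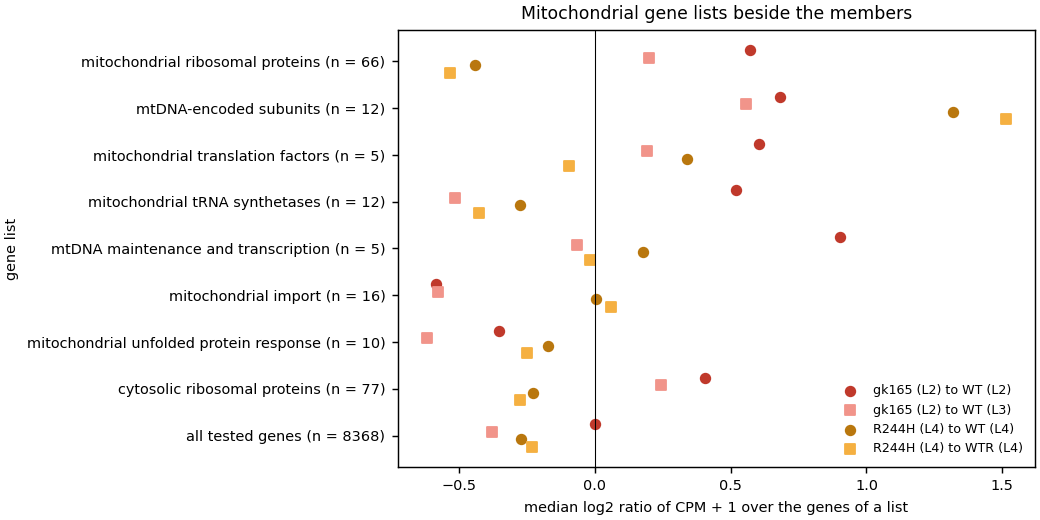
Median log2 ratio of CPM + 1 over each gene list in the 4 comparisons of a mutant with a control, with the number of genes that passed the minimum in brackets. In R244H the mitochondrial ribosomal proteins stand lowest of the 8 lists, at -0.44 and -0.53, and the mtDNA-encoded subunits highest, at 1.32 and 1.51.

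Among other parts of the mitochondrial expression machinery, the tRNA synthetases stood nearest to the members in R244H, and no difference between lists was tested. Beside the counts that follow, 14.4% and 18.5% of all genes were higher in R244H than in WT (L4) and WTR, and 28.7% and 29.5% lower. The 12 mitochondrial tRNA synthetases that passed had a median of -0.27 over WT (L4) and of -0.43 over WTR, with 0 higher and 1 lower in each. Their summed log2 ratio was -0.32 (-0.59 to -0.05) over WT (L4) and -0.46 (-0.75 to -0.17) over WTR, against -0.41 and -0.48 for the members. The 5 translation factors that passed had medians of 0.34 and -0.09, with 1 higher in each and 0 and 1 lower, among them *tsfm-1*, elongation factor Ts, with 85.6 CPM in R244H, against 31.3 in WT (L4) and 30.6 in WTR. *tufm-1*, elongation factor Tu, had 266 CPM in R244H, against 254 in WT (L4) and 284 in WTR. *dap-3*, the counterpart of a human small subunit protein whose name falls outside the rule, had 43.4 CPM in R244H, against 32.5 in WT (L4) and 47.9 in WTR, with intervals that include no change. The 5 genes of mtDNA maintenance and transcription had medians of 0.18 and -0.02, with 1 and 0 higher and 1 lower in each, and the 16 import genes 0.00 and 0.06, with 1 and 0 higher and 1 and 3 lower. Neither median lay below that of all genes.

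Against WT (L2) and WT (L3), 28.8% and 17.9% of all genes were called higher in *gk165*, and 25.9% and 35% lower. The *gk165* counts below stand beside these shares. The tRNA synthetases had a median of 0.52 over WT (L2) and of -0.52 over WT (L3). Of them, 5 and 1 were higher and 1 and 5 lower. The translation factors had 0.61 and 0.19, with 0 called, the genes of mtDNA maintenance and transcription 0.90 and -0.07, and the import genes -0.59 and -0.58, with 2 higher in each and 5 and 6 lower. The medians of the tRNA synthetases and the maintenance genes thus changed sign with the control, while that of all genes moved from 0.00 to -0.38. The maintenance genes stayed above the median of all genes in both, and their summed log2 ratio to WT (L3) was -0.06 (-0.62 to 0.49). Sums and medians also differed in other lists. The summed log2 ratios of the import genes were 0.07 (-0.13 to 0.26) and 0.02 (-0.14 to 0.18). Those of the tRNA synthetases were 0.93 (0.46 to 1.37) and 0.04 (-0.28 to 0.34). The 77 cytosolic ribosomal protein genes had medians of 0.41 and 0.24, with 13 and 10 higher and 1 and 0 lower. The share of them called was under that of all genes in either direction and in both comparisons. By their medians, the cytosolic and mitochondrial ribosomal genes were both above the medians of all genes in this library, 0.00 and -0.38. So were the 2692 genes under 1000 bp, at 0.62 and 0.18, and the part of gene length in either set was not tested. The 10 genes of the mitochondrial unfolded protein response had medians of -0.35 and -0.62 in *gk165*, with 1 and 2 higher and 2 and 4 lower. In R244H they had -0.17 and -0.25, with 1 and 2 higher (14.4% and 18.5% of all genes) and 2 and 1 lower (28.7% and 29.5%). Its transcription factor *atfs-1* had 228 CPM in *gk165*, against 34.4 in WT (L2) and 95.2 in WT (L3), and 207 CPM in R244H, against 96.3 in WT (L4) and 93.9 in WTR. The matrix chaperone *hsp-60* had 127 CPM in *gk165*, against 357 in WT (L2) and 598 in WT (L3), and 301.5 CPM in R244H, against 713 in WT (L4) and 598 in WTR. *hsp-6*, the mitochondrial Hsp70, had 315 CPM in *gk165*, against 258 and 528, and 748.5 CPM in R244H, against 608 and 705. Members of this response thus stood on opposite sides of their controls in both mutants.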

How the data were processed

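The members and all gene lists were chosen with earlier results of these data known. Per the submitters' processing notes and the methods of the study, the authors trimmed reads (Trim Galore 0.4.1, cutadapt 1.14), aligned them with TopHat2 2.1.0 (Bowtie2) to WBcel235, counted them on merged exons of Ensembl release 94 genes and normalized with edgeR 3.26.8. They deposited 1 table of log2 RPKM values per exon, and its log2 CPM column, the authors' mean over the libraries, was not used. The filter, the offset and strand in counting are not given in the sources used here. The lowest value any listed exon reaches in its second-highest library is 2.15 CPM, and lower exons are not analysed here.

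Each deposited log2 value contains an offset of 0.54 CPM, and above it values fall on steps of hundredths of a read. The steps gave back the reads, with reads shared between exons in fractions. Reads were summed per gene, divided by the authors' effective library sizes and compared as log2 ratios of CPM + 1 among genes with a mean of at least 10 CPM. Intervals are exact: binomial (Clopper-Pearson) for a ratio of 2 libraries' reads, without pseudocount and with fractions rounded, and Poisson for summed levels. No test across conditions was made, since each has 1 library. Depth is given in the report, and 1 read was worth 1.25 to 4.304 CPM.

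Values in every library are given for the 10 members with the highest mean RPKM, those beyond 2-fold of both controls with both intervals excluding no change, the 5 largest and 5 smallest by the smaller ratio in each mutant, and 6 of well-known role, of which *mrpl-3* is not listed. This named 30 members. Of other lists, at most 4 genes of highest mean level are named. Overlaps and gaps come from Ensembl release 115 of the same assembly. The alternatives tried were other exon summaries, pseudocounts, minimum levels, thresholds, library sizes, centring and leaving out the 3 highest members and, chosen after seeing the data, the 3' most exon alone and the other exons alone. The scripts were tested on simulated data. Analyses ran in Python 3.11.15 with scipy 1.17.1, pandas 2.3.3 and numpy 2.4.6, and plots in matplotlib 3.10.9.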

Additional observations from a re-analysis of the deposited data

Results flagged for a closer look

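The summed level of the mitochondrial ribosomal protein genes stood on opposite sides of the controls in the 2 mutants. In *gk165* its log2 ratio was 0.86 over WT (L2) and 0.36 over WT (L3), and in R244H it was -0.41 over WT (L4) and -0.48 over WTR. The difference between the mutants was not tested, since each has 1 library, and the mutants also differ in stage. The values of *gk165* lie in the 3' most exon, where they were 1.52 and 0.99, and were 0.10 and -0.37 in the other exons.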

How the results depend on the processing

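Of 164 values recomputed, 104 stayed close to those reported, 56 moved and 4 reversed. Close means within 1.5 times for a count, and, for a median or sum of the same sign, a shift no larger than the mean distance of the sum from its 95% interval bounds. At just 1.5 times were 18 members of *gk165* higher than WT (L2) with recovered totals (23.2% of all genes). So were 18 lower than WT (L3) by the highest exon (37.1%). No alternative reversed a value of R244H. Reversed were the median of *gk165* to WT (L2) outside the 3' most exon (-0.20), and to WT (L3) both the median there (-0.56) and by mean exon RPKM (-0.12) and the sum there (-0.37). In the 3' most exon alone the medians of *gk165* were 1.66 and 0.60, the sums 1.52 and 0.99, and 41 and 27 members were higher (40.5% and 31.5% of all genes). In the other exons 11 and 2 were higher (21.2% and 10.4%) and 20 and 25 lower (36.6% and 49.8%), with a sum of 0.10 to WT (L2). R244H had 6 and 5 higher (16.5% and 18.6%) and 22 lower than WTR (33.9%) in the 3' most exon, and 2 and 4 higher in the rest (15.3% and 20%). With a minimum of 30 CPM, 48 members remained. Against WT (L2), *gk165* then had a median of 0.83 and 3 lower (27.9% of all genes). With recovered totals as library sizes it had a median of 0.27 and a sum of 0.54 to WT (L2). Against WT (L2) it also had 16 lower by the highest exon (28.9%) and 4 lower with an interval that excludes no change (14.2%). At 3-fold 15 were higher (19.5%) and 5 lower (16.5%). Against WT (L3) *gk165* had 21 higher by the highest exon (25%), 18 at 1.5-fold (25%) and 3 at 3-fold (10.8%). Lower were 5 at 3-fold (22.6%) and 6 of the 48 with a minimum of 30 CPM (38.7%). Centred on the median of all genes it had a median of 0.58 to WT (L3), a sum of 0.74, 18 higher (24.4%) and 7 lower (27.1%). R244H centred had medians of -0.17 and -0.30 and sums of -0.14 and -0.25. It had 2 higher in each (19.9% and 23.2%) and 10 lower than WT (L4) (22.4%). Its count of higher members, 1 in each comparison, became 0 by mean exon RPKM to WT (L4) (12.8%). It was 3 and 5 by the highest exon (18.9% and 20.6%). At 1.5-fold it was 3 and 3 (23.5% and 27.7%), and at 3-fold 0 and 0 (7.12% and 9.42%). To WTR it was 0 with a pseudocount of 5 (15.5%), a minimum of 30 CPM (16.9%) or the interval (12.6%). R244H had 25 and 28 lower members at 1.5-fold (39.9% and 39.8%) and 7 and 7 at 3-fold (17.4% and 18.6%). It had 10 lower to WT (L4) with the interval (23.2%) and 21 lower to WTR by the highest exon (32.7%). The causes of these movements were not tested, except that thresholds and exon subsets change counts by construction.

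With a median of 7.5 reads per member in WT (L2), a 2-fold difference of a single member is often not detectable, and a member not called is not shown to be unchanged. No paired analysis was possible because each condition has 1 library.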
